A study of Mus musculus with 35 samples.

Results

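The genes described here are 10 mesenchymal genes outside the collagens, *Vim*, *Lgals1*, *S100a4*, *S100a6*, *Fn1*, *Fbn1*, *Lox*, *Thbs1*, *Thbs2* and *Timp3*. They were chosen by symbol and each matched 1 of the 26127 rows of the RPKM table (RPKM, which divides reads by exon length in kilobases and by the library's mega-reads). Their levels were followed in mouse embryonic stem cells (ESCs) after deletion of *Dnmt1*, which encodes the methyltransferase that copies DNA methylation to new strands. Total RNA depleted of ribosomal RNA came from 17 WT (control), 17 *Dnmt1* KO and 1 DICERKO library. The WT and KO libraries fell on days 0, 1, 3, 6, 9, 11, 17 and 25, with 2 libraries for each genotype and day and 3 at day 1. By the study's methods, all of these cells carried loxP sites around both copies of *Dnmt1*, the KO came from Cre recombination that was switched on with 4OHT, and the *Dicer* KO line was made from the same cells by CRISPR/Cas9 through colonies grown from single cells. The labels give E14 as the background strain, whereas the methods give C57BL/6. The methods also say that ESCs were grown in serum and LIF with or without feeders, which are fibroblasts that support ESCs, and that cells for CRISPR/Cas9 were grown on feeder plates. Which libraries came from feeder cultures is not given in the sources used here. Nothing in the labels says that libraries of a group came from separate cultures, so p-values measure the spread between these libraries, which may be technical.

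Mesenchymal cells such as fibroblasts make a fibrous matrix and an intermediate filament network that epithelial cells and ESCs use less. Vimentin (*Vim*) builds those filaments, galectin-1 (*Lgals1*) is a secreted lectin that binds galactose sugars, and *S100a4* and *S100a6* encode small calcium-binding proteins. Fibronectin (*Fn1*) and fibrillin-1 (*Fbn1*) are glycoproteins of matrix fibres, and lysyl oxidase (*Lox*) crosslinks collagen and elastin. The thrombospondins (*Thbs1* and *Thbs2*) are matrix-bound regulators of adhesion and TGF-beta signalling, and *Timp3* encodes an inhibitor of matrix metalloproteinases.

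The libraries were first compared with their labels. *Dnmt1* had between 14.1 and 34.8 RPKM in WT libraries and between 2.58 and 4.40 in KO libraries of days 3, 9, 11, 17 and 25. At day 0 the libraries labelled KO had 18.5 and 18.7 RPKM beside 18.3 and 18.4 in WT, and at day 1 the KO libraries had 2.86, 3.04 and, in the third pair, 8.13. At day 6 it went the other way, with 3.22 and 3.40 RPKM in the libraries labelled WT against 20.2 and 20.4 in those labelled KO, so day 6 is given as labelled and was left out of the mean over days. Between 24.3 and 72.1 mega-reads per library gave between 5.21 and 18.03 mega-reads in exons of genes. By the fraction of reads that fell in exons, with a boundary of 35% set after the values were seen, there were 20 low-share libraries (20.7% to 22.4%, days 0 to 9) and 15 high-share libraries (44.8% to 49.99%, days 11, 17 and 25, the third pair of day 1 and DICERKO). These sets are not groups of the study, and day and set cannot be told apart except at day 1. A typical tested gene had a higher RPKM in the high-share libraries, with a median difference of 1.03 on the log2 scale over 11594 genes. Pluripotency markers (*Pou5f1*, *Nanog*, *Sox2* and 5 others) were detected in all libraries, with a summed level of at least 511 RPKM.

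Fibroblast markers differed between the sets in the opposite direction. The 12 markers (*Col1a1*, *Col1a2*, *Col3a1*, *Col5a2*, *Col6a3*, *Dcn*, *Lum*, *Postn*, *Pdgfrb*, *Prrx1*, *Twist2* and *Fap*) summed to between 4.23 and 15.3 RPKM in the 20 low-share libraries of the fit. They summed to between 0.151 and 0.867 RPKM in the 12 high-share ones, to 0.491 and 0.521 in the third pair of day 1 and to 42.3 in DICERKO. *Col1a2*, the marker with the highest mean level, had a median of 2.09 RPKM in the low-share set and of 0.0101 in the high-share set, followed by *Col1a1* with 1.51 and 0.0348 and *Col5a2* with 1.1 and 0.135. In the low-share libraries between 8 and 12 of the 12 markers had more than 3 reads, against between 2 and 7 in the high-share ones, where *Fap* was at 0 in all 12 libraries. In bulk RNA, fewer cells of a type and less RNA per cell cannot be told apart.

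Promoter sequences are shown for *S100a4*, far lower in the late libraries, its neighbour *S100a6* and *Vim*, both present in all libraries. RefSeq windows (GRCm38.p6, a later build than the table's NCBIM37) were found for 6 of the 10 genes, and *Lgals1*, *Fn1*, *Lox* and *Thbs1* were not matched. The 250 bases before each start are given 5′ to 3′ on the gene's strand, with CG dinucleotides, the bases that DNMT1 keeps methylated, in capitals. *S100a4* (chr3:90603520-90603769, plus strand) and *S100a6* (chr3:90612644-90612893, plus strand) are close neighbours, and *Vim* lies at chr2:13574061-13574310 on the plus strand.
S100a4: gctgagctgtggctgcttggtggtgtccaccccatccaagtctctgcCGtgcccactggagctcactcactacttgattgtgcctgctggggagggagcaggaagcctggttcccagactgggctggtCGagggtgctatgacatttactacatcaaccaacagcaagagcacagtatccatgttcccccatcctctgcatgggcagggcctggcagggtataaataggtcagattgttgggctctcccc
S100a6: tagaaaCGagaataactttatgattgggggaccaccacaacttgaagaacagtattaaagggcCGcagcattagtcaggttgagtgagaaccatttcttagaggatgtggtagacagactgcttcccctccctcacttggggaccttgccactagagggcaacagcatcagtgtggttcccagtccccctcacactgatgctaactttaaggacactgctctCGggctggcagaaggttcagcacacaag
Vim: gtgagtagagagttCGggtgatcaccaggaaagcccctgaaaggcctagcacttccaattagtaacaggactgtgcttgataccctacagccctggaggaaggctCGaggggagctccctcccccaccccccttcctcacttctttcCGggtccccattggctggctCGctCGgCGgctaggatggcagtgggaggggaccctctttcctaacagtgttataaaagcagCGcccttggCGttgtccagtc
These windows held 2 CG dinucleotides for *S100a4*, 3 for *S100a6* and 8 for *Vim*, beside a median of 6 (quartiles 2 and 16) over 32851 promoter windows of this length. *Thbs2* had 3, *Fbn1* 13 and *Timp3* 18. The letters TATAAA, searched on both strands, were present in 3 of the 6 windows (*Vim*, *S100a4* and *Thbs2*) and in 12.4% of all windows. The letters TGANTCA were in 0 of the 6 and in 6.75% of all windows. Methylation was not measured in these files.

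Levels of the 10 genes separated into those present in all libraries and those far lower in the late ones. *Vim* had a median of 19.9 RPKM (range 8.90 to 42.6) in the 20 low-share libraries and of 15.3 (5.25 to 45.9) in the 12 high-share libraries of the fit. *Lgals1* had 26.6 (14 to 55.1) and 51.2 (24.7 to 136), *S100a6* 17.4 (5.52 to 46.4) and 15.4 (7.15 to 55.2), and *Fn1* 14.6 (11 to 18.1) and 10.2 (4.85 to 27.4). These 4 genes were above 1 RPKM in all 32 libraries, and their ranges in both sets overlapped.

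In contrast, *S100a4* had a median of 9.19 RPKM (2.01 to 34.9) in the low-share and of 0.308 (0 to 0.667) in the high-share libraries. *Lox* had 2.56 (1.19 to 5.10) and 0.0140 (0 to 0.141), and *Thbs1* had 12.8 (6.92 to 26.0) and 0.536 (0.127 to 2.91). *Thbs2* had 0.463 (0.186 to 1.2) and 0.0507 (0.00622 to 0.123). The ranges of these 4 genes did not overlap between the sets, as for the summed fibroblast markers. The share of all tested genes without overlap between the sets was not counted, so this has no background beside it. *Fbn1* with 0.767 (0.392 to 1.99) and 0.211 (0.0938 to 0.732), and *Timp3* with 1.08 (0.544 to 2.33) and 0.488 (0.323 to 0.863), were lower in the late set with overlap. Relative to the median shift of all genes, the difference between the sets was -5.55 for *S100a4*, -5.47 for *Lox*, -4.90 for *Thbs1* and between -2.95 and -0.11 for the other 7 genes on the log2 scale. *S100a4*, *Lox*, *Fbn1*, *Thbs2* and *Timp3* exceeded 1 RPKM, the level required of tested genes, only in low-share libraries of the fit. Their lower levels in the other set, beside the median of tested genes, were thus partly selected for.

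The third pair of day 1 had the levels of the late libraries at an early day. *S100a4* had 0.813 RPKM in its WT and 0.638 in its KO library, against between 7.04 and 9.57 in the other 4 day 1 libraries. *Lox* had 0.123 and 0.129 against 1.77 to 2.56, and *Thbs1* 1.40 and 1.26 against 9.12 to 13.5. *Lgals1* went the other way, with 56.0 and 47.0 RPKM against 24.0 to 30.8, as a typical gene did. Levels of day 1 thus moved with the set at a fixed day. The part of fibroblast RNA in the levels was not tested.

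**Figure D1:**
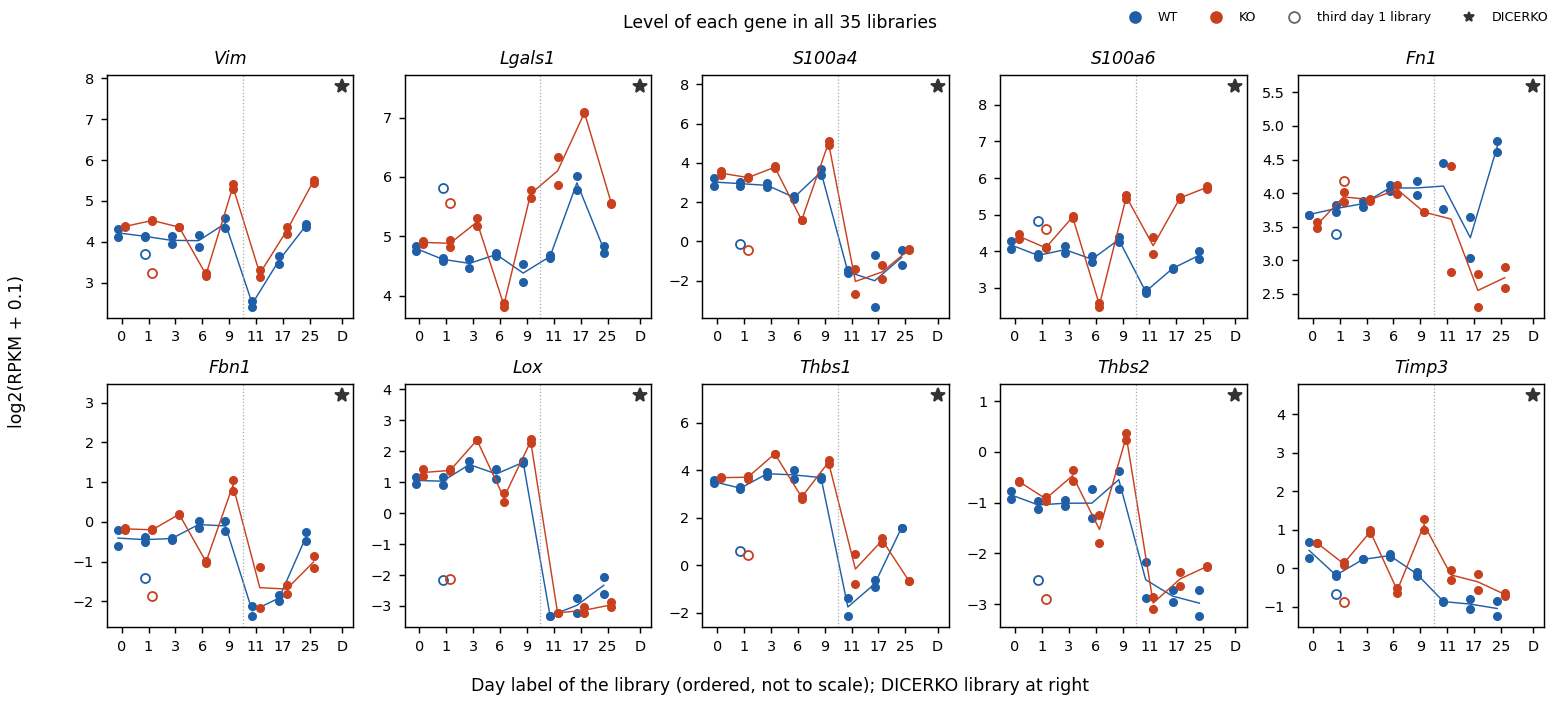
Level of each gene as log2(RPKM + 0.1) on the vertical axis by day label on the horizontal axis (days in order, not to scale) in all 35 libraries. Points are libraries (WT blue, KO red), lines join the means of replicates 1 and 2, open circles are the third pair of day 1, the star at D is DICERKO and the dotted line separates days 0 to 9 from days 11 to 25. *S100a4*, *Lox*, *Thbs1* and *Thbs2* drop at the dotted line and in the open circles, *Vim*, *Lgals1*, *S100a6* and *Fn1* stay above 1 RPKM, and DICERKO is highest in all 10 panels.

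The main comparison asked how KO and WT libraries of the same day differed, within 1 set of libraries. The genes of the filaments, lectin and calcium-binding proteins (*Vim*, *Lgals1* and *S100a6*) were higher in KO at each of days 3, 9, 11, 17 and 25. *Timp3* was also higher at each of these days. *Fn1* was lower in KO at days 17 and 25, and *Thbs1* was higher at days 3, 11 and 17 and lower at day 25. Tests were made with limma on log2(RPKM + 0.1), a scale that understates changes of low genes, over 11594 genes that exceeded 1 RPKM in 2 or more of 32 libraries, and a gene was called when its p, adjusted by Benjamini and Hochberg's method over all tested genes, was below 0.05. All 10 genes passed this filter, but *Thbs2* only through the KO libraries of day 9 and *Fbn1* only through those of days 3 and 9, so these 2 had to be high there. Their calls in any comparison that uses those libraries are no support, and the counts of called genes are also given without them, out of 8.

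Before and soon after induction none of the 10 genes was called. At day 0, 0 of 10 were called against 0% of tested genes in either direction (limma, 265 genes with an unadjusted p below 0.05, of them 1 of the 10, and voom called 0 genes). At day 1, 0 of 10 were called against 0.216% of tested genes higher and 0.069% lower, 2 of the 10 had an unadjusted p below 0.05, and voom called 0 of the 10 genes. Both KO libraries of day 1 were nevertheless above both WT libraries for all 10 genes, as for 23.2% of tested genes. Already at day 0, with *Dnmt1* at the WT level, both libraries labelled KO were above both WT libraries for 7 of the 10 genes. They were below for 1, against 21.5% and 16.2% of tested genes. In the third pair of day 1 the KO library was below the WT library for 8 of the 10 genes (*Lgals1* 47.0 against 56.0 RPKM) and above it for *Fn1* and *Lox*. The share of all tested genes with this order in the third pair was not counted, so this count has no background beside it. The median difference of the 10 genes was 0.22 on the log2 scale at day 0 and 0.28 at day 1, beside 0.01 over all tested genes at each day. The summed fibroblast markers were 1.14 and 1.39 times as high in KO at these days.

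Calls appeared from day 3. At day 3, 6 of 10 genes were higher and 0 lower, against 7.77% and 4.16% of tested genes, with a median difference of 0.71 on the log2 scale (0.02 over all tested genes). At day 9, 8 were higher and 0 lower, against 17% and 10.9%, with a median of 0.96 (0.02 over all). Without *Fbn1* and *Thbs2*, 6 of 8 genes were higher at each of these days. The summed fibroblast markers were 1.81 times as high in KO at day 3 and 2.01 times at day 9. Primitive endoderm markers also moved, with 8 of 9 tested higher in KO at day 9 (1 of 9 at day 3). Which libraries carried these 9 over the filter was not examined. The markers summed to 44.0 and 50.6 RPKM in WT against 85.4 and 88.1 in KO at day 9, and their part in the result was not tested. When each library was centred on its median, 6.01% of tested genes were higher and 6.02% lower at day 3, with 5 of the 10 genes higher. For day 9 these shares were 14% and 14.2%, with 8 of the 10 genes higher.

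In the late libraries, where fibroblast markers were near 0, the genes divided. At day 11, 6 of 10 were higher and 0 lower, against 23.2% and 12.7% of tested genes, and at day 17, 5 were higher and 1 lower, against 29.3% and 11.7%. At day 25, 5 were higher and 4 lower, against 39.8% and 26.2%, so the share of the 10 genes called was near the background at that day. The median differences were 0.64, 0.51 and 0.38 on the log2 scale, beside 0.07, 0.09 and 0.13 over all tested genes. Centring lowered each difference by 0.11 at day 11 and by 0.18 at day 17, which left 15.1% of tested genes higher and 20.9% lower at day 11. For day 17 these shares became 17.9% and 26%. Of the 10 genes, 5 were then higher and 0 lower at day 11, and 5 were higher and 1 lower at day 17. The summed fibroblast markers were 2.30, 1.96 and 1.34 times as high in KO at days 11, 17 and 25, at levels of at most 0.867 RPKM.

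At day 6, as labelled, 0 of 10 were higher and 7 lower in the libraries labelled KO, against 9% and 19% of tested genes (13.7% in each direction after centring). The median difference was -0.88 on the log2 scale, beside -0.05 over all tested genes, and the summed fibroblast markers were 0.514 times as high in the libraries labelled KO.

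Averaged over days 3, 9, 11, 17 and 25, 8 of 10 genes were higher in KO and 1 (*Fn1*) was lower, against 37.8% and 20.7% of tested genes (26.5% and 31.7% after centring, with 7 and 1 of the 10). Without *Fbn1* and *Thbs2*, 6 of 8 were higher and 1 lower. The median difference of the 10 was 0.54 on the log2 scale, beside 0.06 over all tested genes. Over days 3 and 9 alone, 9 genes were higher and 0 lower, and *Fbn1* and *Thbs2* among them are no support. There *Lox* was called (0.73, limma adjusted p 0.000118) and *Fn1* was not (-0.15, adjusted p 0.64). Over days 11, 17 and 25 alone, 5 were higher and 1 lower, and *S100a4* (0.12, adjusted p 0.741), *Fbn1* (0.06, adjusted p 0.712) and *Thbs2* (0.20, adjusted p 0.23) were not called. With day 6 included as labelled, 6 were higher and 1 lower, and *S100a4* and *Fbn1* were not called. The counts of these 3 alternative means are given without the share of all tested genes, so they are not set against a background. The call of *S100a4* in the mean over days 3, 9, 11, 17 and 25 was lost with a pseudocount of 0.01, without the filter, after centring, with voom, with the replicate block and with only the groups compared in the fit (adjusted p 0.0532 to 0.145). It was also lost without replicate 2 of either genotype at day 3, 11 or 17, KO replicate 1 or WT replicate 2 at day 9, or WT replicate 1 or KO replicate 2 at day 25 (difference 0.29 to 0.55, adjusted p 0.0561 to 0.0837).

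The calls depended on how the third pair of day 1 was treated. When it was added to the fit, limma called 0 of 10 genes at day 3, 3 at day 9, 2 at day 11, 2 at day 17 and 4 at day 25. The calls that remained were *Lgals1*, *S100a6* and *Timp3* at day 9, *Lgals1* and *S100a6* at days 11 and 17, and *Vim*, *S100a6*, *Fn1* and *Thbs1* at day 25. Calls over all tested genes fell as well with that pair, to 77, 383, 653, 1215 and 2430 at days 3, 9, 11, 17 and 25. The main fit had called 1383, 3245, 4153, 4755 and 7650 of all tested genes at these days. With only the high-share days in the fit, an alternative added after the data were seen, 4, 4 and 5 genes were called at days 11, 17 and 25. These were *Vim*, *Lgals1*, *S100a6* and *Thbs1* at each day and *Fn1* at day 25. In that fit 2017, 2913 and 6241 of all tested genes were called at these days. With only the day 11 libraries in the fit, *Lgals1* and *S100a6* were called at that day, among 313 of all tested genes.

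**Figure D2:**
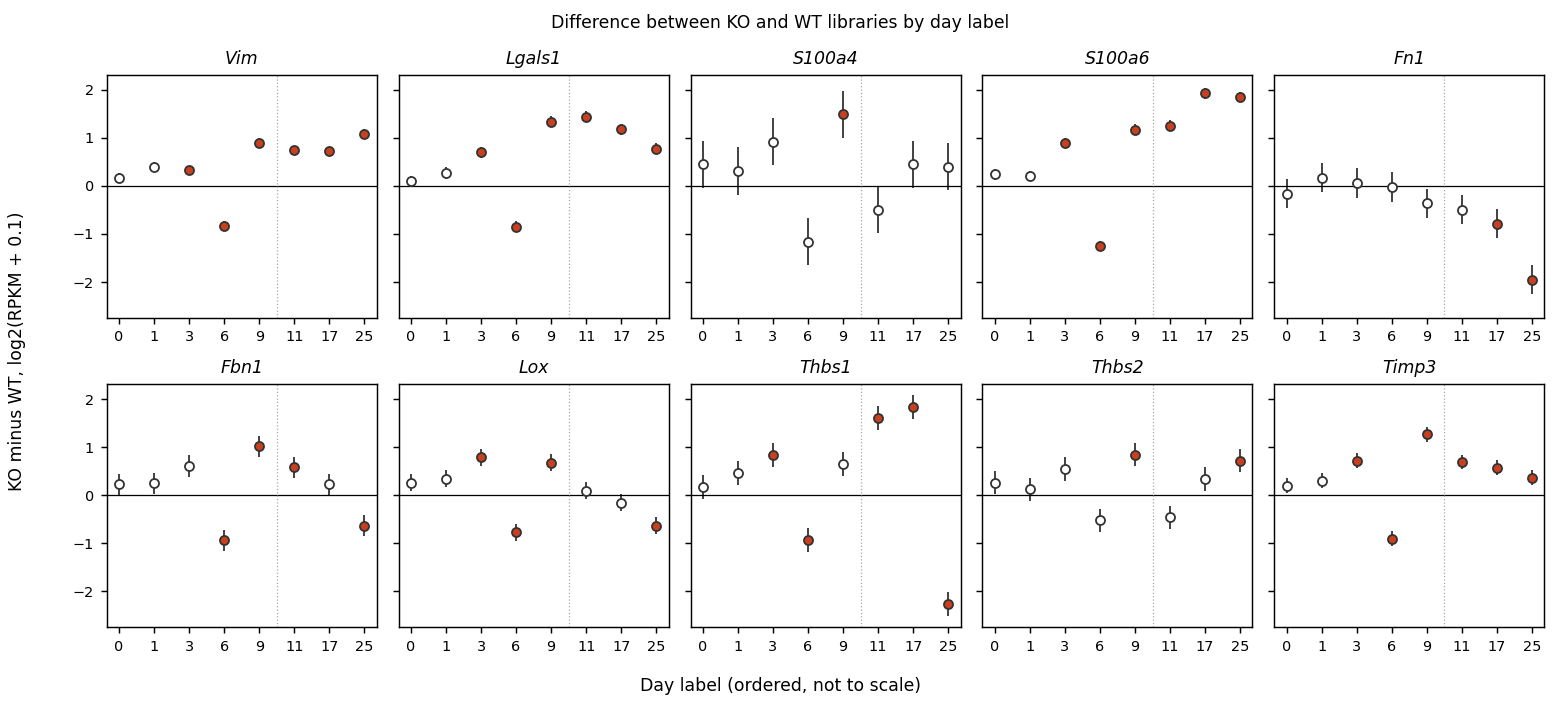
Difference between KO and WT libraries in log2(RPKM + 0.1) on the vertical axis by day label on the horizontal axis (days in order, not to scale). Points are limma estimates from 2 libraries of each genotype, bars are standard errors, filled points had an adjusted p below 0.05, and day 6 is drawn as labelled. *Vim*, *Lgals1*, *S100a6* and *Timp3* are above 0 at all days but day 6, *Fn1* falls to -1.95 at day 25, and *Thbs1* goes from 1.84 at day 17 to -2.26 at day 25.

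Among the intracellular genes, *S100a6* (ENSMUSG00000001025.4, NCBIM37 chromosome 3, 90416816 to 90418336, plus strand, 3 exons) had the largest difference in the mean over days. At day 3 it had 15.3 and 17.6 RPKM in WT and 31.0 and 30.0 in KO, and at day 9 20.8 and 18.9 against 46.4 and 43.2. At day 17 it had 11.4 and 11.5 RPKM in WT and 43.0 and 44.6 in KO, and at day 25 15.8 and 13.7 against 51.9 and 55.2. KO libraries were above WT libraries without overlap at each of these days. The difference was 0.89 ± 0.11 (SE) on the log2 scale at day 3, 1.17 ± 0.11 at day 9, 1.93 ± 0.11 at day 17 and 1.85 ± 0.11 at day 25 (limma adjusted p 1.16e-05, 7.27e-08, 9.63e-12 and 1.73e-11). KO had 3.62 times the RPKM of WT at the last day. The fibroblast sum had 1.34 times, but was only 0.806 and 0.595 RPKM in KO, with 5 and 3 markers over 3 reads. The part of fibroblast RNA in this difference was not tested. The calls of *S100a6* at days 3, 9, 11, 17 and 25 held when each library was left out in turn.

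*Vim* (ENSMUSG00000026728.3, chromosome 2, 13495554 to 13504453, plus strand, 8 exons) rose in both genotypes through the late days and was higher in KO. It had 5.78 and 5.25 RPKM in WT and 9.89 and 8.68 in KO at day 11, and 12.5 and 10.8 against 18.1 and 20.4 at day 17. At day 25 it had 20.6 and 21.5 in WT and 43.6 and 45.9 in KO. KO was above WT without overlap at each of these days, as for 31.9%, 42.6% and 49.5% of tested genes. The difference was 0.32 ± 0.10 (SE) on the log2 scale at day 3, 0.90 ± 0.10 at day 9 and 1.09 ± 0.10 at day 25 (limma adjusted p 0.0427, 9.49e-07 and 1.87e-08). The call at day 3 was lost without any 1 of the 4 libraries of that day (difference 0.23 to 0.42, adjusted p 0.051 to 0.364) and after centring.

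*Lgals1* (ENSMUSG00000068220.5, chromosome 15, 78757155 to 78760895, plus strand, 4 exons) had its highest RPKM at day 17. It had 23.1 and 18.7 RPKM in WT and 55.1 and 50.2 in KO at day 9, and 64.7 and 55.0 in WT against 134 and 136 in KO at day 17. At day 25 it had 26.4 and 28.6 in WT against 46.7 and 47.3 in KO. KO libraries were higher without overlap, by 1.34 ± 0.12 (SE) on the log2 scale at day 9, 1.44 ± 0.12 at day 11, 1.18 ± 0.12 at day 17 and 0.77 ± 0.12 at day 25 (limma adjusted p 2.09e-08, 4.29e-09, 4.87e-08 and 7.95e-06). KO was above WT without overlap for 39.1%, 31.9%, 42.6% and 49.5% of tested genes at these days.

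*S100a4* (ENSMUSG00000001020.7, chromosome 3, 90407692 to 90409967, plus strand, 3 exons), the neighbour of *S100a6*, had its one called difference between genotypes on a single day at day 9. It had 7.67 and 6.60 RPKM in WT and 13 and 14.2 in KO at day 3, and 12.6 and 10.4 in WT against 34.9 and 29.9 in KO at day 9. At day 17 it had 0.518 and 0 RPKM in WT and 0.165 and 0.334 in KO, with at most 12 reads in any late library. The WT library at 0 allows up to 0.171 RPKM (a floor of 3 reads, counting error only). The difference was 0.92 ± 0.49 (SE) on the log2 scale at day 3 (limma adjusted p 0.262), whereas at day 9 it was 1.49 ± 0.49 (adjusted p 0.0275). With only the low-share days in the fit, the day 3 difference was called (adjusted p 6.41e-05). The day 9 call was lost without any 1 of the 4 day 9 libraries (difference 1.36 to 1.62, adjusted p 0.0682 to 0.152).

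Of the fibre genes, *Fn1* (ENSMUSG00000026193.8, chromosome 1, 71632094 to 71699774, minus strand, 46 exons) was the only gene of the 10 that was lower in KO in the mean over days, by 0.71 ± 0.14 (SE) on the log2 scale (limma adjusted p 0.000144). At day 3 it had 13.8 and 14.7 RPKM in WT and 14.7 and 15 in KO, which overlapped. At day 9 both KO libraries (13 and 13.1 RPKM) were below both WT libraries (15.5 and 18.1), as for 32.8% of tested genes. This difference of -0.36 ± 0.30 was not called (limma adjusted p 0.409), but was called with only the day 9 libraries in the fit (adjusted p 0.00942) and with only the low-share days (adjusted p 0.000845). At day 17 it had 8.05 and 12.4 RPKM in WT and 6.81 and 4.85 in KO, and at day 25 27.4 and 24.2 in WT against 7.36 and 5.87 in KO. WT had 3.90 times the RPKM of KO at day 25, a difference of -1.95 ± 0.30 on the log2 scale (adjusted p 1.17e-05), whereas the difference of -0.79 ± 0.30 at day 17 (adjusted p 0.0428) was lost without WT replicate 2 (-0.48, adjusted p 0.321) or KO replicate 2 (-0.55, adjusted p 0.286). At day 11 the KO libraries themselves were far apart, at 6.98 and 21.0 RPKM, and without KO replicate 2 the difference of -1.28 was called (adjusted p 0.000167). Its exons share 292 bases with *Apol7d* on the opposite strand, and whether counting used strand is not given in the sources used here.

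*Fbn1* (ENSMUSG00000027204.7, chromosome 2, 125126330 to 125333729, minus strand, 65 exons) was low throughout. It had 0.914 and 0.756 RPKM in WT and 1.99 and 1.61 in KO at day 9, and 0.612 and 0.732 in WT against 0.452 and 0.347 in KO at day 25. *Fbn1* passed the filter only through the KO libraries of days 3 and 9, so its call at day 9 is no support. The difference was 1.02 ± 0.22 (SE) on the log2 scale at day 9 (limma adjusted p 0.00143), whereas at day 25 it was -0.63 ± 0.22 (adjusted p 0.0158), and the latter was lost without WT replicate 2 (-0.52, adjusted p 0.106) or KO replicate 2 (-0.48, adjusted p 0.133). The call at day 11 rested on KO replicate 2, which had 0.351 RPKM beside 0.123 in replicate 1 and 0.0938 and 0.131 in WT (0.08 and adjusted p 0.783 without it). Its exons share 2442 bases with *Gm9913* on the opposite strand.

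*Lox* (ENSMUSG00000024529.6, chromosome 18, 52675723 to 52689521, minus strand, 9 exons) was higher in KO at days 3 and 9 and had at most 0.141 RPKM in the late libraries. It had 3.13 and 2.63 RPKM in WT and 5.0 and 5.07 in KO at day 3, and 3.08 and 2.96 against 5.10 and 4.69 at day 9. KO was higher without overlap by 0.79 ± 0.18 (SE) and 0.68 ± 0.18 on the log2 scale (limma adjusted p 0.00479 and 0.00657), and both calls were lost with a pseudocount of 0.01 (adjusted p 0.212 and 0.205). Without WT replicate 2 the adjusted p was 0.0848 at day 3 and 0.0532 at day 9, and without KO replicate 1 it was 0.0644 at day 9. At day 11 both WT libraries were at 0 and the KO libraries had 0.00677 and 0.00703 RPKM, each under the floor, so no fold is given. The call at day 25 (WT 0.0638 and 0.141 RPKM, KO 0.0358 and 0.0208) was lost with a pseudocount of 1 (-0.10, adjusted p 0.303) and without WT replicate 2 (-0.35, adjusted p 0.118).

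The thrombospondin *Thbs1* (ENSMUSG00000040152.8, chromosome 2, 117937612 to 117952869, plus strand, 22 exons) changed direction in the late days. It had 0.127 and 0.282 RPKM in WT and 0.477 and 1.28 in KO at day 11, and 0.423 and 0.541 in WT against 2.11 and 1.84 in KO at day 17. At day 25 it had 2.89 and 2.91 RPKM in WT and 0.531 and 0.521 in KO. The groups did not overlap at any of these days. Among tested genes 31.9% had KO above WT without overlap at day 11 and 42.6% at day 17, and 33.4% had KO below WT at day 25. The difference was 1.60 ± 0.25 (SE) on the log2 scale at day 11, 1.84 ± 0.25 at day 17 and -2.26 ± 0.25 at day 25 (limma adjusted p 4.32e-05, 4.49e-06 and 1.86e-07), and these calls held when each library was left out in turn. At day 3, with 15.2 and 13.6 RPKM in WT and 25.8 and 26.0 in KO, the difference of 0.84 ± 0.25 (adjusted p 0.0311) was lost without any 1 of its 4 libraries (0.76 to 0.92, adjusted p 0.0932 to 0.193).

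*Thbs2* (ENSMUSG00000023885.7, chromosome 17, 14802507 to 14831269, minus strand, 23 exons) had at most 1.2 RPKM in WT and KO libraries. It had 0.673 and 0.507 RPKM in WT and 1.2 and 1.07 in KO at day 9. *Thbs2* passed the filter only through these KO libraries, so its call at day 9 is no support. The difference of 0.85 ± 0.24 (SE) on the log2 scale (limma adjusted p 0.0124) was lost without KO replicate 1 (0.78, adjusted p 0.093) or WT replicate 2 (0.67, adjusted p 0.143). At day 25 it had 0.0506 and 0.00622 RPKM in WT and 0.108 and 0.110 in KO, and that call was lost with a pseudocount of 1 (0.11, adjusted p 0.17) and without WT replicate 2 (0.47, adjusted p 0.16).

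The inhibitor gene *Timp3* (ENSMUSG00000020044.7, chromosome 10, 85763117 to 85812251, plus strand, 8 exons) had 1.07 and 1.07 RPKM in WT and 1.89 and 1.77 in KO at day 3, and 0.839 and 0.773 against 2.33 and 1.88 at day 9. At day 11 it had 0.446 and 0.450 in WT and 0.715 and 0.863 in KO. KO was higher without overlap from day 3 to day 25 apart from day 6, by 1.27 ± 0.16 (SE) on the log2 scale at day 9, 0.69 ± 0.16 at day 11 and 0.37 ± 0.16 at day 25 (limma adjusted p 2.48e-06, 0.0015 and 0.0424). Between 31.9% and 49.5% of tested genes had KO above WT without overlap at these days. The day 25 call was lost without WT replicate 1 (0.17, adjusted p 0.419), KO replicate 1 (0.42, adjusted p 0.0699) or KO replicate 2 (0.32, adjusted p 0.162), and the day 17 call without WT replicate 1 (0.45, adjusted p 0.0702) or KO replicate 2 (0.38, adjusted p 0.115). Its exons share 1733 bases with *Syn3* on the opposite strand.

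The change of the KO difference between an early and a late day was tested directly, as the difference at day 25 minus that at day 9. *S100a6* had a larger difference at day 25, by 0.68 ± 0.16 (SE) on the log2 scale (limma adjusted p 0.00139). *Thbs1* (-2.91 ± 0.35), *Fbn1* (-1.66 ± 0.31), *Fn1* (-1.59 ± 0.43), *Lox* (-1.31 ± 0.25), *Timp3* (-0.91 ± 0.22) and *Lgals1* (-0.56 ± 0.16) had smaller or more negative ones. Thus 1 of 10 was higher and 6 lower, against 27.3% and 21.8% of tested genes, with a median of -0.997 beside 0.07 over all tested genes. Without *Fbn1* and *Thbs2*, which were high in KO at day 9 by the filter, 1 of 8 was higher and 5 lower. With the third pair of day 1 in the fit only *Fn1* of the 10 was called, and 842 of all tested genes, against 5693 in the main fit. The call of *Lgals1* was lost without WT replicate 2 of day 9 (-0.41, adjusted p 0.0615).

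Levels were also followed over days within a label and a set. The libraries labelled KO had the *Dnmt1* level of WT at day 0, so the KO comparison of day 9 with day 0 also spans the loss of *Dnmt1* RNA. From day 0 to day 9, 8 of 10 genes were higher in KO and 0 lower, against 18.6% and 13.1% of tested genes (13.4% and 20.8% after centring, with 7 and 0 of the 10), or 6 of 8 without *Fbn1* and *Thbs2*. *Fn1* (0.19 ± 0.30, limma adjusted p 0.668) and *Thbs1* (0.65 ± 0.25, adjusted p 0.0522) were not called. The KO count was 5 with a pseudocount of 0.01, and 1 with the third pair of day 1 in the fit. With that pair 431 of all tested genes were called in KO, against 3675 in the main fit. Over the same days in WT, *Lox* was higher by 0.59 ± 0.18 (SE) and *Lgals1* and *Timp3* were lower, with differences of -0.42 ± 0.12 and -0.61 ± 0.16 on the log2 scale, so that 1 of 10 was higher and 2 lower, against 8.63% and 7.74% (6.09% and 10.6% after centring). Each of these 3 WT calls was lost when some library was left out, with 0 of 10 genes called without replicate 1 of day 0 or replicate 2 of day 9.

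From day 11 to day 25, *Vim* was higher by 1.91 ± 0.10 (SE) in WT and 2.26 ± 0.10 in KO on the log2 scale (limma adjusted p 2.15e-12 and 7.31e-13), and *S100a6* by 0.99 ± 0.11 and 1.59 ± 0.11. *Thbs1* was higher by 3.35 ± 0.25 in WT (adjusted p 2.92e-10), whereas its KO difference of -0.51 ± 0.25 was not called (adjusted p 0.0901). *Fn1* had 0.59 ± 0.30 in WT (adjusted p 0.0903) and was lower by -0.87 ± 0.30 in KO (adjusted p 0.0197). In all, 5 of 10 were higher and 0 lower in WT, against 35% and 33.6% of tested genes, and 5 were higher and 3 lower in KO, against 28.3% and 25.5%. In WT these were *Vim*, *S100a6*, *Fbn1*, *Lox* and *Thbs1*. The KO count fell to 2 with only those groups in the fit and to 3 with only the high-share days. Calls over all tested genes fell from 6233 to 1634 and 4271 in these fits.

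Beside the fibroblast markers, the genes differed in how closely they moved within a set. Over the 20 low-share libraries the Pearson r of log2 levels with the summed markers was between 0.79 and 0.93 for 9 of the 10 genes and -0.22 for *Fn1*. Over the 12 high-share libraries it was 0.87 for *Vim*, 0.86 for *S100a6* and 0.66 for *Thbs1*, between 0.15 and 0.58 for the other 6 and -0.42 for *Fn1*. In these 12 libraries only between 2 and 7 of the 12 markers had more than 3 reads. *Col5a2* (0.135 RPKM) and *Pdgfrb* (0.0944) had the highest medians there, and *Col5a2* alone had r 0.95 with *S100a6* over 32 libraries after the mean of each set was removed. These values are descriptions over libraries that share genotypes, days and depth. In the KO libraries of day 25 *Vim* had 43.6 and 45.9 RPKM beside sums of 0.806 and 0.595. The part of fibroblast RNA in these levels was not tested. Beyond the median shift of all genes between the sets, the difference of the high-share from the low-share set was -1.40 for *Vim*, -0.92 for *S100a6* and -0.11 for *Lgals1* on the log2 scale.

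**Figure D3:**
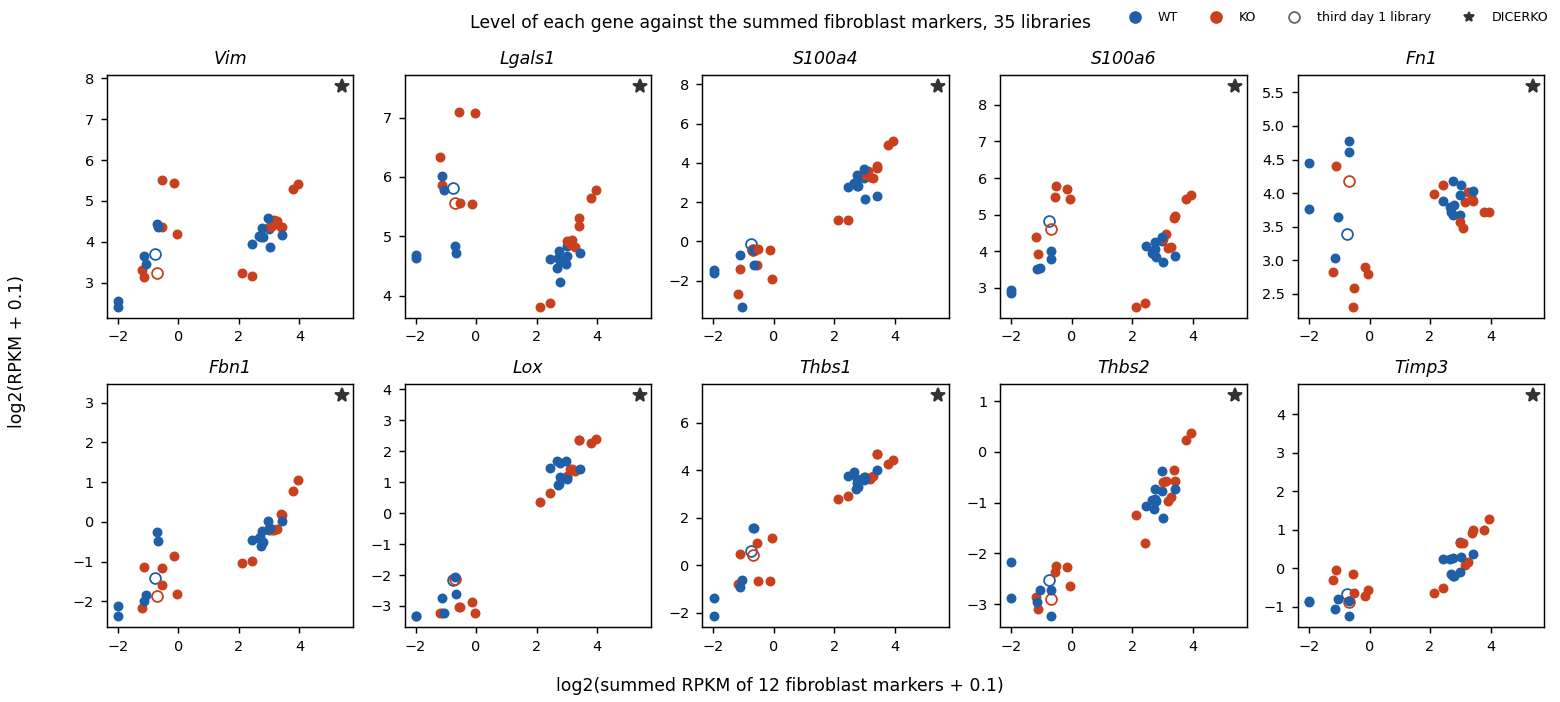
Level of each gene as log2(RPKM + 0.1) on the vertical axis against log2 of the summed RPKM of 12 fibroblast markers + 0.1 on the horizontal axis in all 35 libraries (WT blue, KO red, open circles the third pair of day 1, star DICERKO). The left cloud holds the high-share libraries (sums of 0.151 to 0.867 RPKM) and the right cloud the low-share ones (4.23 to 15.3). *S100a4*, *Lox* and *Thbs1* are low in the left cloud, while the levels of *Vim* and *S100a6* in both clouds overlap and *Lgals1* reaches higher in the left cloud (up to 136 RPKM, against 55.1 in the right).

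In the DICERKO library, which lacks the nuclease that makes microRNAs and endosiRNAs, all 10 genes were higher than in any WT or KO library. *S100a6* had 368 RPKM, *S100a4* 245, *Vim* 226, *Lgals1* 186 and *Thbs1* 145, followed by *Fn1* with 48.5, *Timp3* with 22.6, *Lox* with 14, *Fbn1* with 9.05 and *Thbs2* with 2.08. DICERKO was above all other 34 libraries for 24.6% of tested genes. Against the mean of the 6 WT libraries of days 11, 17 and 25, all 10 genes were higher by more than 1 on the log2 scale, as were 14.4% of tested genes, with a median of 4.89 beside 0.05 over all tested genes. There was 1 library and no test.

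The sizes differed between the genes. *S100a4* was 9.40 higher on the log2 scale than in WT, where it had 0 to 0.628 RPKM (at most 10 reads), and *Thbs1* was 7.50 higher (WT 0.127 to 2.91 RPKM). *Vim* was 4.34 higher (WT 5.25 to 21.5), *Lgals1* 2.42 higher (24.7 to 64.7) and *Fn1* 1.56 higher (8.05 to 27.4). Compared with the highest of the 34 other libraries, *Timp3* had 9.72 times, *S100a4* 7.01 times and *S100a6* 6.67 times the RPKM, against 1.36 times for *Lgals1*.

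Fibroblast markers were high in the same library, with a sum of 42.3 RPKM that was 2.76 times the highest of the other 34, and with more than 3 reads for all 12. *Col5a2* had 14.4, *Col1a2* 7.29 and *Col1a1* 5.21 RPKM. Primitive endoderm markers summed to 168 RPKM, against at most 117 in the WT and KO libraries, and the matrix and TGF-beta pathway list to 539, against at most 110. Not all primitive endoderm markers went this way. In DICERKO 10 of the 12 had more than 3 reads, without *Sox7* and *Foxa2*, against 11 or 12 in the WT and KO libraries. The pluripotency sum of 1058 RPKM lay within the range of the other high-share libraries (742 to 1594). The part of fibroblast or primitive endoderm RNA, of the clone and of *Dicer* loss in these levels cannot be told apart with 1 library. The opposite-strand neighbours were also higher there than in any other library, with 7.88 RPKM for *Apol7d*, 2.14 for *Gm9913* and 6.75 for *Syn3*.

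**Figure D4:**
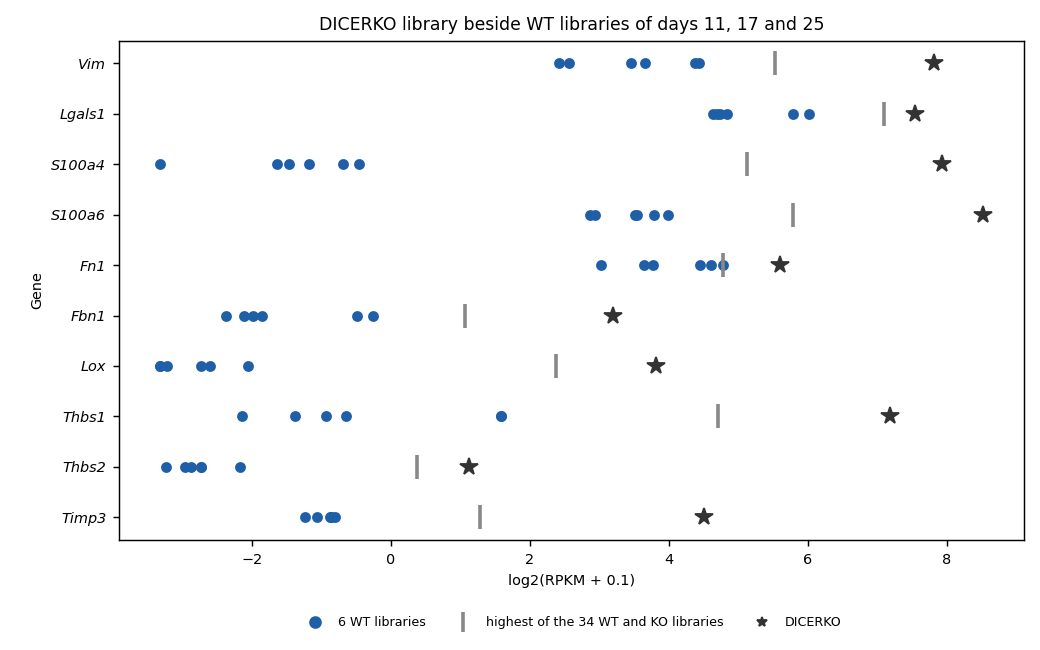
Level of each gene as log2(RPKM + 0.1) on the horizontal axis, with genes on the vertical axis, in the DICERKO library (star) and the 6 WT libraries of days 11, 17 and 25 (blue). The grey bar marks the highest of the 34 WT and KO libraries. The star lies to the right of the grey bar for all 10 genes, by the least for *Lgals1* (1.36 times) and the most for *Timp3* (9.72 times).

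Relatives of the 10 genes were described from a list of 21 (thrombospondins, TIMPs, S100 proteins, galectins and filament genes), of which 15 passed the filter. For this and the lists below, the libraries that carried each gene over the filter were not examined. Genes that passed only through KO libraries may be among them, and their calls may have been selected for, as for *Fbn1* and *Thbs2*. In the mean over days 12 of the 15 were higher in KO and 0 lower, against 37.8% and 20.7% of tested genes (26.5% and 31.7% after centring), with a median of 0.61 on the log2 scale beside 0.06 over all tested genes. *S100a13* (1.34) and the keratin gene *Krt8* (1.23), whose protein builds filaments of epithelial cells, had the largest called differences, and *S100a11* (0.40) and the galectin gene *Lgals8* (0.45) the smallest. At day 25, 7 of 15 were higher and 1 lower, against 39.8% and 26.2% of tested genes, so the share higher was near the background.

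Of 34 genes of the matrix and TGF-beta pathway, 19 passed the filter. In the mean over days 13 of the 19 were higher in KO and 2 lower, against the same 37.8% and 20.7%, with a median of 0.40. *Sdc4*, a cell surface proteoglycan, was higher by 0.75 on the log2 scale (limma adjusted p 4.83e-13), whereas the gelatinase gene *Mmp2* was lower by -0.43 and the TGF-beta-binding protein gene *Ltbp4* by -0.34. At day 25 the balance was the other way, with 4 of 19 higher and 8 lower against 39.8% and 26.2% of tested genes and a median of -0.27, at the day when *Fn1* and *Thbs1* were also lower.

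Of 8 regulators of the epithelial to mesenchymal transition and adhesion genes, 3 passed the filter. *Twist1*, a transcription factor of mesenchyme, was higher by 0.52 and *Cdh1*, the adhesion molecule of epithelial cells and ESCs, lower by -0.25 in the mean over days. Thus 1 of 3 was higher and 1 lower, with a median of -0.06 on the log2 scale beside 0.06 over all tested genes. At day 25, 0 of the 3 were higher and 1 lower, against 39.8% and 26.2% of tested genes. For the marker lists the background in this mean is again 37.8% of tested genes higher and 20.7% lower. The fibroblast list had 5 tested genes, all 5 higher (*Col5a2* 1.21 and *Col3a1* 0.43 the largest, *Col6a3* 0.28 and *Col1a2* 0.34 the smallest). *Col6a3* had a median of 0.501 RPKM and at most 1.45 in the low-share libraries, so its call may have been selected for. Of 9 tested primitive endoderm markers 5 were higher and 0 lower (*Col4a1* 0.92 and *Col4a2* 0.86 the largest, *Gata6* 0.30 and *Cubn* 0.36 the smallest). Of 2 tested mesoderm markers both were higher (*Hand1* 1.44 and *Eomes* 0.21). Of 8 pluripotency markers 3 were higher, a share near the background, and 5 lower (*Nanog* 0.81 and *Zfp42* 0.25 against *Utf1* -0.60 and *Lin28a* -0.31). Centring takes 0.08 from each of these differences, which turns the direction of none of the genes named here.

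The genes whose levels moved most like each of the 10 were found over 32 libraries after the mean of each set was removed. *S100a6* was most like *Wdr1* (r 0.96) and the fibrillar collagen gene *Col5a2* (0.95), *Fn1* like *2810046L04Rik* (0.95) and *Tnrc6b* (0.93), and *Thbs1* like *D19Wsu162e* (0.92) and *Slc35b4* (0.89). *Vim* was most like *Eid1* and *Gm6410* (both 0.91), *Lgals1* like *Anxa1* (0.90) and *1700061G19Rik* (0.89), and *Fbn1* like the integrin gene *Itgb1* and *Bysl* (both 0.91). *Timp3* was most like *Igfbp7* (0.89) and *Fez1* (0.86), *Lox* like the collagen gene *Col12a1* (0.88) and *Sdpr* (0.86), *S100a4* like *Tm4sf1* (0.82) and *Gm11768* (0.81), and *Thbs2* like *Gm2115* (0.82) and *Tm4sf1* (0.80). *Tm4sf1* was thus among the 2 genes most like both *S100a4* and *Thbs2*, and *Fn1* had a negative r with *Lgals1* (-0.66) and *S100a6* (-0.58).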

How the data were processed

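The 35 libraries held total RNA after ribosomal depletion. Per the labels and the study's methods, reads were trimmed with Trim Galore 0.3.5 and aligned with TopHat2 2.0.11 to NCBIM37, reads of low mapping quality were discarded and SeqMonk quantified genes. The authors deposited RPKM on a linear scale and unscaled between libraries, whereas the methods mention log2 RPM, so a pseudocount of 0.1 was added. Replicate numbers come from the titles.

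Exon lengths came from GENCODE vM1 (NCBIM37). Between 99.4% and 99.7% of low values were whole reads within 0.1, which gave depths, a floor of 3 reads (counting error only) and recovered reads for voom.

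Genes that exceeded 1 RPKM in 2 or more of 32 libraries were fitted (11594 genes) as 16 group means with limma 3.58.1 in R 4.3.3 (eBayes with a trend, 16 residual degrees of freedom, Benjamini-Hochberg over all genes). The third pair of day 1 and DICERKO did not enter. The functions were tested on simulated data. Other steps ran in Python 3.11.15 (pandas 2.3.3, numpy 2.4.6) with figures by matplotlib 3.10.9. Alternatives changed the pseudocount, filter, scaling, libraries, days and tool. All 10 genes are named, with Dnmt1, the 2 tested genes most like each, the 3 highest fibroblast markers and the 2 largest and 2 smallest called differences of each list, of which 1 gene is not reported here. The 10 genes and the lists were chosen with earlier results of these data known.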

Additional observations from a re-analysis of the deposited data

Results flagged for a closer look

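The KO difference changed between day 9 and day 25 for 7 of the 10 genes by the test of the difference itself (limma on log2(RPKM + 0.1), day 25 minus day 9). *Thbs1* changed by -2.91, *Fbn1* by -1.66, *Fn1* by -1.59, *Lox* by -1.31, *Timp3* by -0.91 and *Lgals1* by -0.56, and *S100a6* changed by 0.68. *Fbn1* passed the filter only through KO libraries of days 3 and 9, so its high level in KO at day 9 was selected for and its change is no support. Day 9 is a low-share and day 25 a high-share day, so day and set cannot be told apart. No group had 4 libraries, so no single library could be tested as standing apart from its group.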

How the results depend on the processing

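No member changed direction while called under any alternative. Of 199 counts of called members under the alternatives, 169 lay within 1.5 times the main count. With the third pair of day 1 in the fit, limma called 0 of 10 genes at day 3, 1 at day 6, 3 at day 9, 2 at day 11, 2 at day 17, 4 at day 25, 5 in the mean over days, 1 for day 25 minus day 9, 0 and 1 for day 9 minus day 0 in WT and KO, and 2 for day 25 minus day 11 in KO. In that fit all genes called were 77 at day 3, 330 at day 6, 383 at day 9 and 653 at day 11. They were 1215 at day 17, 2430 at day 25, 2194 in the mean over days and 842 for day 25 minus day 9. For day 9 minus day 0 they were 11 in WT and 431 in KO, and for day 25 minus day 11 in KO 1245. With a pseudocount of 0.01, 5 of the 10 genes were called at day 9 and 5 for day 9 minus day 0 in KO. With only the groups compared in the fit, 2 were called at day 11, 5 for day 9 minus day 0 in WT and 2 for day 25 minus day 11 in KO. With only days of the same set, chosen after seeing the data, 1 was called at day 1, 5 at day 25, 5 for day 9 minus day 0 in WT and 3 for day 25 minus day 11 in KO. The cause was not tested for any of these, and the ranges of all genes called under the alternatives are given below. When each library was left out in turn, the counts ran from 3 to 4 at day 3, 5 to 7 at days 6 and 9, 5 to 6 at day 11, 4 to 6 at day 17, 6 to 8 at day 25, 8 to 10 in the mean over days, 6 to 7 for day 25 minus day 9, 0 to 2 and 5 to 7 for day 9 minus day 0 in WT and KO, and 5 to 6 and 5 to 7 for day 25 minus day 11 in WT and KO, with 0 throughout at days 0 and 1. The DICERKO median of 4.89 was 3.95 with a pseudocount of 1, 3.60 against WT day 0 and 4.18 against KO of days 11, 17 and 25.

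Libraries with the same number deviated together to some degree at day 11 (r 0.260 over 11594 genes). At the other days r was between -0.154 and 0.0867. With the replicate block limma called 0, 0, 6, 7, 9, 6, 6, 9 and 8 of the 10 genes at days 0, 1, 3, 6, 9, 11, 17 and 25 and in the mean, and 7 for day 25 minus day 9, and it changed 2 single calls, *Thbs1* at day 9 (0.65, adjusted p 0.00446, called) and *S100a4* in the mean (0.55, adjusted p 0.0532, not called). The block moved the count of all called genes by over 1.5 times only at day 1 (20 against 33).

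Over all alternatives, the number of all genes called ran from 1 to 92 at day 1 (33 in the report), 77 to 2672 at day 3 (1383), 330 to 4913 at day 6 (3249), 383 to 4905 at day 9 (3245), 313 to 5602 at day 11 (4153), 1215 to 6701 at day 17 (4755), 2430 to 10122 at day 25 (7650), 2194 to 9444 in the mean (6778), 842 to 6635 for day 25 minus day 9 (5693), 11 to 3706 and 431 to 5299 for day 9 minus day 0 in WT and KO (1897 and 3675), and 3332 to 10627 and 1245 to 8526 for day 25 minus day 11 in WT and KO (7957 and 6233). *S100a4*, *Lox* and *Thbs2* had at most 28 reads in late libraries, so their late differences, called or not, rest on few reads.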
